A study of Mus musculus with 16 samples.

Results

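At 10 Gy, HMGB1-knockdown AB22 cells (shHMGB1, 2 libraries) were compared with control AB22 cells (shCTRL, 2 libraries), which are 4 of the 16 break-mapping libraries of the series. AB22 is a mouse line of malignant mesothelioma, which arises from the cells that line the chest and abdomen. Both lines carried a doxycycline-inducible hairpin in the vector pTRIPZ, were selected with puromycin as transduced cells, received doxycycline for days before the experiment, and were held in G1 when exposed to gamma rays from a caesium source. The shHMGB1 cells carried a hairpin against Hmgb1 and the shCTRL cells a control hairpin, and the other groups of the series received 0, 3 or 5 Gy with 2 libraries per line. The sources used here do not say whether either line was cloned, and they call the libraries biological replicates without saying that they came from separate cultures, so p-values measure the spread between these libraries only.

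HMGB1 is an abundant high mobility group protein that binds the minor groove, bends DNA and is known to loosen the hold of histones on DNA. BLISS (breaks labelling in situ and sequencing) joins an adapter onto blunted DNA ends inside fixed cells, copies the tagged genomic DNA into RNA and sequences outward from the adapter, so that each sequenced molecule marks where a double-strand break ended. The question named by the title of the study is whether DNA wrapped in nucleosomes is broken less by irradiation.

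The 4 libraries were close in size. On the main chromosomes the shHMGB1 libraries held 1010888 and 826051 break ends and the shCTRL libraries 858494 and 845903, always replicate 1 first and replicate 2 second. The ratio of the geometric means was 1.07, and the exact two-sided permutation test gave p = 1 (2 libraries against 2, for which the smallest p is 0.333). The number of distinct positions was 633368 and 507797 in shHMGB1, against 501336 and 525204 in shCTRL. The library that stood apart was shCTRL replicate 1, in which 32 dense regions, each near a cluster of at least 1000 ends, held 25.8% of the ends, against 18.3% in shCTRL replicate 2 and 21.3% and 20.8% in the shHMGB1 libraries. Hmgb1 (chromosome 5, 149046702 to 149184489, mm10, minus strand) held 46.9 and 40.2 CPM (ends scaled to library size, for genes by TMM) in shHMGB1, against 39.9 and 39.3 in shCTRL. Its log2 difference was 0.14 ± 0.36 (SE, edgeR), which is no check of the knockdown, since break ends do not measure a transcript.

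No gene passed the test for a difference between the lines at 10 Gy when the 16 libraries were fitted as 8 group means. Of 12832 genes with enough ends, 0 passed an adjusted p under 0.05 in edgeR's quasi-likelihood test (percent called 0), and 346 had an unadjusted p under 0.05 (2.7% of the genes tested). Of these, 182 were higher in shHMGB1 (1.42%) and 164 lower (1.28%). DESeq2 also gave 0 genes, with 253 at an unadjusted p under 0.05. The median log2 difference over all genes was 0.0037 and the median standard error 0.55, so the depth set wide limits on any one gene. Between single libraries, the log2 ratios of 1838 genes with at least 50 ends on average had an SD of 0.337 for the shHMGB1 pair and 0.394 for the shCTRL pair. The 4 pairs of an shHMGB1 with an shCTRL library gave 0.330 to 0.395. Counting error alone would give 0.213 to 0.233.

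The genes with the smallest p that were higher in shHMGB1 are given as values, since none passed the test. Avil, which encodes an actin-binding protein of the villin family, held 106 and 92.1 CPM in shHMGB1, against 41.2 and 39.3 CPM in shCTRL, with no overlap. Its log2 difference was 1.30 ± 0.33 (SE; edgeR adjusted p = 1.00). Almost all of these ends sat in one place. Within a few bases of positions where ends pile up, Avil held 105 of 108 and 74 of 78 ends in shHMGB1, against 33 of 33 and 36 of 37 in shCTRL. Tsfm, for the mitochondrial elongation factor Ts, overlaps Avil on the other strand of chromosome 10 and shares its largest pile, and its log2 difference was 1.15 ± 0.32. As the files keep no strand, the ends cannot be divided between the pair. Mboat2, for a membrane-bound acyltransferase, held 101 and 59 ends in shHMGB1, of which 84 and 48 lay at a single place, against 37 and 35 ends in shCTRL, of which 29 and 26 lay there.

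Fap and Adra1a were different, because most of their ends lay away from positions where ends pile up. Fap, for fibroblast activation protein, a cell-surface serine protease, held 26 and 27 ends at 23 and 21 positions in shHMGB1, against 8 and 7 ends at 7 and 7 positions in shCTRL. The log2 difference was 1.70 ± 0.53. Of the Fap ends, 1 and 5 in shHMGB1 lay where ends pile up, against 0 and 0 in shCTRL. Adra1a, for the alpha-1A adrenergic receptor, held 41 and 24 ends at 31 and 19 positions in shHMGB1, against 11 and 9 ends at 6 and 7 positions in shCTRL (log2 difference 1.56 ± 0.49). Of these, 5 and 4 ends in shHMGB1 lay where ends pile up, against 5 and 2 in shCTRL. In Fap the line difference at the other doses was −0.92 at 0 Gy, 0.43 at 3 Gy and −0.12 at 5 Gy.

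The 6 genes with the smallest p that were lower in shHMGB1 had 0 ends at positions where ends pile up. Most genes had none there, since 7.43% of all genes tested held any such end at 10 Gy. Tspan11, a tetraspanin gene on chromosome 6, held 89 and 61 ends in shHMGB1, against 126 and 144 in shCTRL. No position in it held more than 3 ends in any of the 4 libraries. Its log2 difference was −0.96 ± 0.29 at 10 Gy (edgeR adjusted p = 1.00), and −0.58 at 0 Gy, −1.11 at 3 Gy and −0.79 at 5 Gy. Mtmr10, of the myotubularin-related family, held 12 and 13 ends in shHMGB1, against 27 and 47 in shCTRL. Xirp2, which encodes an actin-binding protein of striated muscle, held 11 and 5 ends in shHMGB1, against 29 and 27 in shCTRL. Ric8b, whose product acts on G protein alpha subunits, held 24 and 17 ends in shHMGB1, against 33 and 58 in shCTRL. Mybphl and Myh13, a myosin-binding and a myosin heavy chain gene of muscle, were near the limit of detection in shHMGB1, at 0 and 0 ends and at 3 and 2 ends, against 7 and 11 and 15 and 15 ends in shCTRL. In all 6 genes both shHMGB1 libraries lay below both shCTRL libraries. That follows largely from the choice, since they were picked by p in this direction from these libraries. Of all genes tested, 14.9% had this pattern and 16.4% the reverse.

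**Figure D1:**
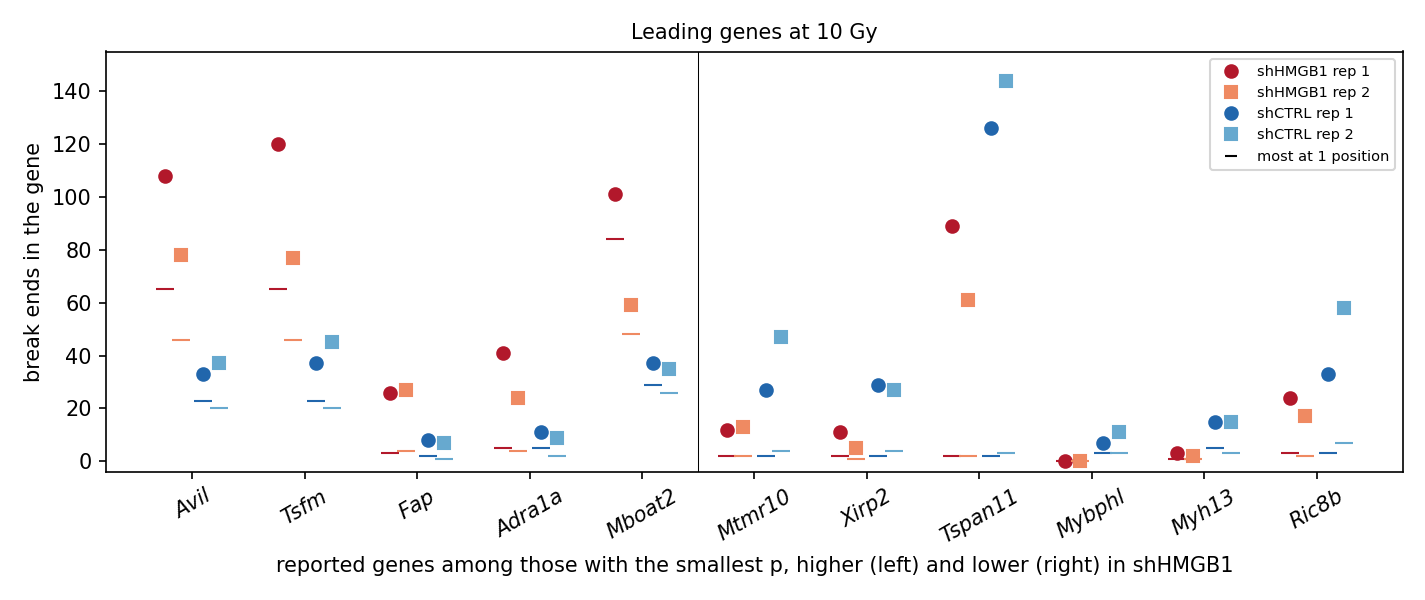
Break ends in each library at 10 Gy (y axis, counts) for 5 genes with the smallest p that were higher in shHMGB1 and the 6 that were lower, where points are libraries and short bars give the most ends at 1 position. In Avil and Mboat2 a single position holds most of the ends in every library, and in Tsfm in all but shCTRL replicate 2 (20 of 45), while in Tspan11 no position holds more than 3.

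Single positions at which ends pile up held more ends in shHMGB1 at 10 Gy. In the 12 libraries at the other doses, 1832 positions held at least 20 ends within 3 bases and at least 80% of all ends within 500 bases, and they are called pile-ups here. They were chosen after seeing the data and without the 10 Gy libraries. Of them, 1003 lay in protein-coding or long noncoding genes and 829 outside. At 10 Gy they held 7.22% and 6.38% of the ends in shHMGB1, against 5.23% and 5.10% in shCTRL, so that the lines did not overlap. At 772 pile-ups both shHMGB1 libraries exceeded both shCTRL libraries in CPM of all ends (42.1%), and at 166 both were below (9.06%). Among the 249 with at least 100 ends at 10 Gy, the counts were 171 and 20. Over 858 pile-ups with at least 20 ends at 10 Gy the median log2 difference was 0.57.

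The choice of positions could favour the line with more ends, since the 12 libraries held 4897901 ends from shHMGB1 and 2941547 from shCTRL. Among the 827 pile-ups with at least 20 ends in the shCTRL libraries of the other doses alone, 427 were higher in both shHMGB1 libraries at 10 Gy (51.6%) and 71 lower (8.59%), with a median of 0.56. Across doses the share at pile-ups did not keep one order of the lines. It was 9.27% and 9.64% in shHMGB1 at 0 Gy, against 6.82% and 9.12% in shCTRL. At 3 Gy it was 8.19% and 8.34% in shHMGB1, against 5.39% and 14.2% in shCTRL, where the second value came from the smallest library of the series. At 5 Gy the order was the reverse, with 7.29% and 5.00% in shHMGB1, against 7.62% and 8.66% in shCTRL.

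The pile-up with the most ends at 10 Gy, on chromosome 11 at position 55220251 in Slc36a1, a proton-coupled amino acid transporter gene, held 4723 and 4986 CPM in shHMGB1, against 3859 and 3740 in shCTRL. The one on chromosome 2 at 27127108 in Fam163b held 4016 and 3946 CPM in shHMGB1, against 3308 and 3369 in shCTRL. On chromosome 2 at 142055213 in Macrod2, for an ADP-ribose hydrolase, the values were 1699 and 1764 CPM in shHMGB1, against 1264 and 1193 in shCTRL. In edgeR's test on all 16 libraries 889 pile-ups had enough ends, 0 passed the adjusted threshold (percent called 0), and 95 had an unadjusted p under 0.05 (10.7%), of which 87 were higher in shHMGB1 (9.79%) and 8 lower (0.9%). The median log2 difference of that fit was 0.55, and it was 0.29 without shHMGB1 replicate 1 and 0.70 without shHMGB1 replicate 2. In the same fit the median was 0.49 at 0 Gy, 0.40 at 3 Gy and −0.29 at 5 Gy, and 0 pile-ups passed the test of whether 10 Gy departs from the mean of the other doses (18 at an unadjusted p under 0.05). Fitted on the 4 libraries at 10 Gy alone, where the median log2 difference was 0.58, 6 of 513 passed, all higher in shHMGB1. They were the Slc36a1 pile-up (log2 difference 0.35 ± 0.0616, edgeR adjusted p = 0.0429), that in Macrod2 (0.49 ± 0.0893), one each in Cdhr2 (0.46 ± 0.0930) and Adamts17 (0.73 ± 0.15), and a pair outside genes on chromosomes X and 10 (0.53 ± 0.0979 and 0.44 ± 0.0836). Of the 6, the Adamts17 pile-up alone lay above the median of that fit, so the others did not differ more than most pile-ups. All these fits scaled each library by its total ends, so the differences are relative to the rest of the library. With TMM scaling over the pile-ups themselves, on all 16 libraries, the median log2 difference was −0.04 and 0 passed. At an unadjusted p under 0.05, 22 were then higher in shHMGB1 and 74 lower. That scaling centres the pile-ups near 0 by design, so it cannot show a direction that most of them share. Scaled by the ends outside pile-ups, on all 16 libraries, the median log2 difference was 0.58 and 0 of 894 passed. At an unadjusted p under 0.05, 83 were then higher in shHMGB1 and 7 lower.

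**Figure D2:**
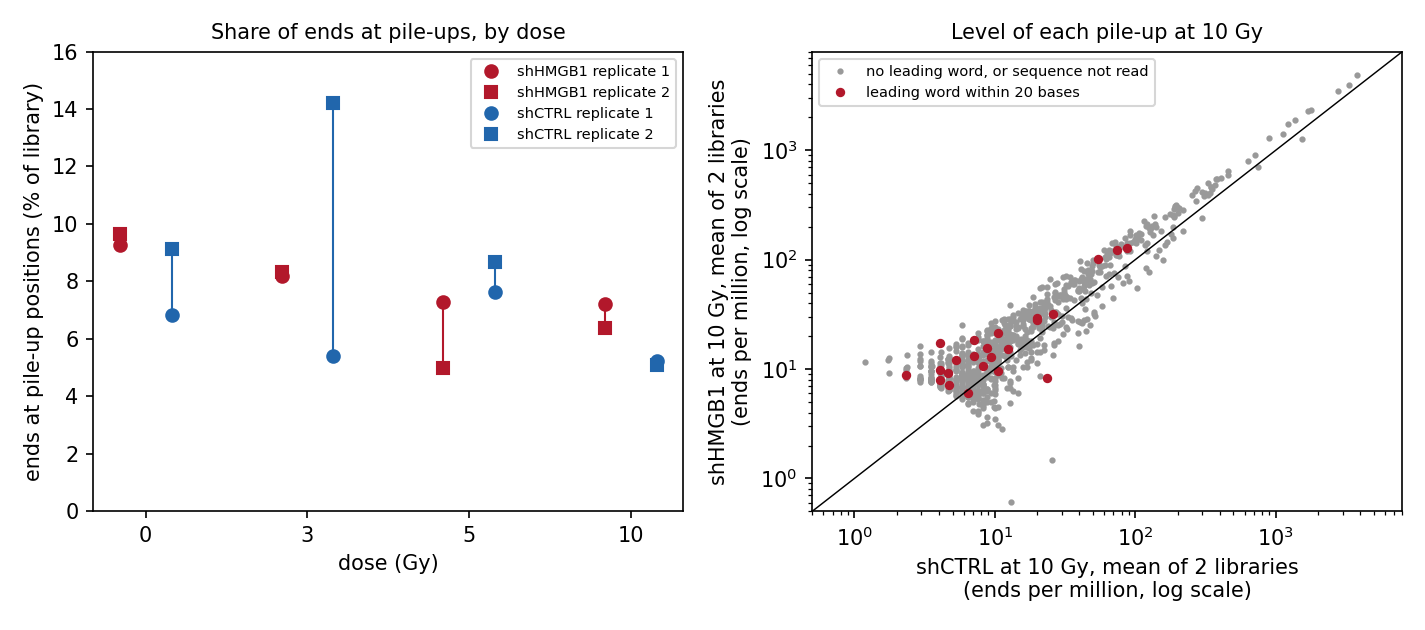
Left, share of each library's ends at the 1832 pile-up positions (y axis, percent) by dose, one point per library. Right, mean CPM in shHMGB1 against shCTRL at 10 Gy (log axes) for 858 pile-ups with the line of equality and the pile-ups with a leading word in red; most points lie above the line, with a median log2 difference of 0.57.

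Sequence could be read for 129 pile-ups whose surroundings of 20 bases on each side lie in one exon of GENCODE M21. A family of overlapping words of 7 letters was frequent among them. ACTCTGA, or its reverse complement TCAGAGT, was found at 30 of the 129 (23.3%), against 0.919% of 216742 other exonic positions with an end at 10 Gy. The 5 leading words were that one, AACTCTG and its neighbour CTCTGAA, together with AGAGTTC and its neighbour GTTCAGA, which overlap one another and were searched on both strands. Any of them occurred at 43 pile-ups (33.3%), against 3.10% of the other positions. The words were picked from these same pile-ups, so the counts are descriptive. The sequences below, from mm10 on the plus strand, show the words in capitals at the 5 pile-ups with the most 10 Gy ends among those that hold one, and each runs from 5 bases before the pile-up position to 20 after it.
chr9:44379001-44379026: ctcgtactattgggGTTCAGAGTTaa
chr11:69686321-69686346 (Tnfsf12 and neighbours): caatcttcagttACTCTGAACcccaa
chr19:3865778-3865803 (Chka): ctgggaatcGAACTCTGAACctctag
chr12:77683146-77683171 (4930458K08Rik): caaatgcctatGAACTCTGAACccca
chr13:101683107-101683132 (Pik3r1): ttccattctaaactGAACTCTGAACa

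At the chromosome 9 sequence there were 162 and 81 ends in shHMGB1, against 74 and 75 in shCTRL. At the chromosome 11 sequence, within the Tnfsf12 locus of a TNF family ligand, there were 147 and 84 ends in shHMGB1, against 70 and 56 in shCTRL. At Chka, for choline kinase alpha, there were 116 and 73 ends in shHMGB1, against 51 and 41 in shCTRL. Pile-ups with one of the 5 words together held 829 and 592 CPM in shHMGB1, against 466 and 439 in shCTRL. At 22 of the 43 both shHMGB1 libraries were higher (51.2%) and at 1 both were lower, against 42.1% higher and 9.06% lower of all pile-ups. Of the 86 with sequence and none of the words, 16 were higher (18.6%) and 14 lower (16.3%). No test between these sets was made. The median log2 difference was 0.74 over the 23 of them with at least 20 ends at 10 Gy, and −0.02 over 36 pile-ups with sequence but none of the words. The word lay to the right of the deposited position in 14 matches read as ACTCTGA and in 16 read as TCAGAGT, and to its left in 1. Whether the deposited position is the break itself or the leftmost base of a read is not given in the sources used here. The same letters also occur in the 5′ adapter of the small RNA kit named in the labels, and a part of library preparation in the pile-ups was not tested.

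Another word, GTGATG or CATCAC, occurred at 18 of the 86 pile-ups with none of those 5 words (20.9%), against 3.11% of such other positions. It was picked as the most frequent word of 6 letters in these same 86, so these counts are descriptive too. The 3 pile-ups in genes with the most 10 Gy ends among the 86 each hold it, shown in capitals.
chr8:85053589-85053614 (Tnpo2): gccttaaGTGATGgagacataccctg
chr11:48803135-48803160 (Rack1): aggcccaacaGTGATGaccacaacat
chr17:24528471-24528496 (Rab26): ccccaagcccGTGATGaattaatttc

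The lines overlapped in CPM at these places. Tnpo2, for a transportin that carries proteins into the nucleus, had 213 and 109 ends there in shHMGB1, against 159 and 147 in shCTRL. Rack1, for a scaffold protein on the ribosome, had 94 and 46 ends in shHMGB1, against 44 and 67 in shCTRL. Summed, the 18 held 490 and 304 CPM in shHMGB1, against 381 and 421 in shCTRL, which overlap.

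Most of the 191 tested genes with most of their ends at pile-ups had no unadjusted p under 0.05, and their direction was not counted. Those with such a p lay mainly on the higher side. Genes that share a pile, as Avil and Tsfm do, are counted separately. Among the 182 genes with an unadjusted p under 0.05 that were higher in shHMGB1, 36 had most of their 10 Gy ends at pile-ups (19.8%), against 2 of the 164 lower ones (1.22%) and 1.49% of all genes tested. Calhm5, of a family of calcium homeostasis modulator channels, had 203 and 145 of its 252 and 169 ends at a single position in shHMGB1, against 94 and 79 of 109 and 96 in shCTRL. Jakmip1 had 156 and 106 of 174 and 120 ends at one in shHMGB1, against 60 and 57 of 75 and 70 in shCTRL. Both genes were chosen for mention after their values were seen.

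Genes that differed between the lines at the other doses were then read at 10 Gy, from fits that share no library. In the 12 libraries at 0, 3 and 5 Gy, 7 of 11239 genes passed edgeR's test of the mean line effect (0.0623%), with 6 lower in shHMGB1 and 1 higher. Of the 6 that had enough ends in the 4 libraries at 10 Gy, all had the same direction there, 4 had an unadjusted p under 0.05 (4.54% of 9577 genes did, and 2.18% in the lower direction) and 0 passed after adjustment. Ccn5, a matricellular CCN family gene on chromosome 2, held 62.6 and 24.8 CPM in shHMGB1, against 107 and 78.6 CPM in shCTRL. The 10 Gy fit gave a log2 difference of −1.05 ± 0.31 (edgeR unadjusted p = 0.00196, adjusted 0.813), and the other doses −1.76 ± 0.24. Neat1, the noncoding RNA that scaffolds paraspeckles, held 416 and 377 CPM in shHMGB1, against 553 and 606 CPM in shCTRL. Its log2 difference was −0.54 ± 0.22 at 10 Gy (edgeR adjusted p = 0.999) and −0.96 ± 0.19 at the other doses.

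Il1rl1, the receptor for interleukin-33, held 68.4 and 59.1 CPM in shHMGB1, against 109 and 85.0 CPM in shCTRL, and its log2 difference was −0.59 ± 0.25. Gm47283, on chromosome Y, held 231 and 188 CPM in shHMGB1, against 414 and 204 CPM in shCTRL, so that the groups overlapped. The libraries of the lines also overlapped in the remaining 3 genes. Cldn34c1, of a claudin family with close copies on chromosome X, held 11 and 14 ends in shHMGB1, against 16 and 13 in shCTRL. Fkbp2, for a prolyl isomerase of the endoplasmic reticulum, held 7 and 13 ends in shHMGB1, against 21 and 9 in shCTRL. Apol6, of the apolipoprotein L family, was the gene called higher at the other doses (log2 difference 4.95 ± 0.87), and at 10 Gy it held 11 and 6 ends in shHMGB1, against 13 and 1 in shCTRL. No gene, promoter or window passed the test of whether the line difference at 10 Gy departs from that at the other doses, whose lowest adjusted p values were 1.00, 0.991 and 0.995 in edgeR. Among genes, 426 had an unadjusted p under 0.05 in that test.

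**Figure D3:**
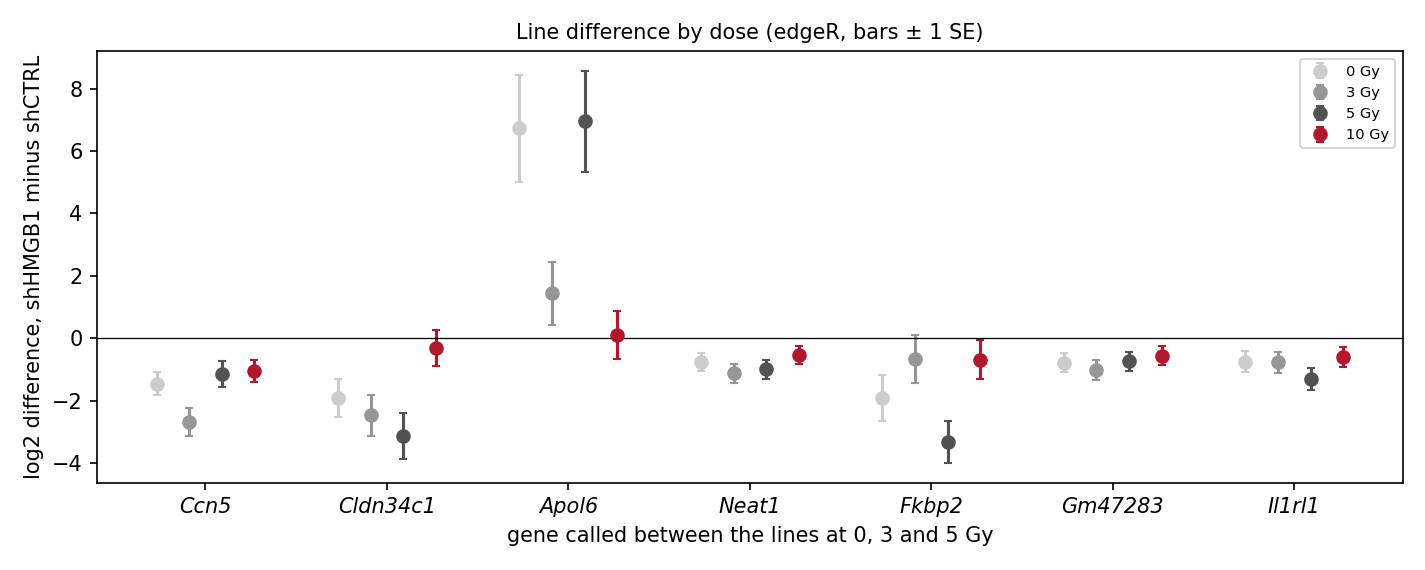
Log2 difference, shHMGB1 minus shCTRL, at each dose (edgeR on 16 libraries, bars ± 1 SE) for the 7 genes called between the lines at 0, 3 and 5 Gy. At 10 Gy Ccn5 (−1.06), Neat1, Fkbp2, Gm47283 and Il1rl1 lie below 0 by more than 1 SE, and Cldn34c1 (−0.31) and Apol6 (0.11) lie within 1 SE of it.

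Genes of chromatin proteins and of the break response showed no call in either direction. In the list of HMG and architectural genes, 13 of 22 tested members were higher in shHMGB1 and 9 lower, with a median log2 difference of 0.08, against 0.0037 over all genes. Hmga2, an AT-hook architectural gene, held 129 and 136 CPM in shHMGB1, against 177 and 143 CPM in shCTRL, and the cohesin subunit gene Stag1 144 and 124 CPM, against 135 and 153 CPM. The 7 annotated linker histone genes had too few ends to test, as in H1f0 with 3 and 5 ends in shHMGB1, against 0 and 3 in shCTRL. Of nucleosome remodelling genes, 9 of 25 were higher and 16 lower, with a median of −0.13. Arid1b, a subunit of the BAF remodelling complex, held 154 and 156 CPM in shHMGB1, against 161 and 151 CPM in shCTRL. Baz2b, a bromodomain gene, held 153 and 126 ends in shHMGB1, of which 48 and 23 lay at pile-ups, against 82 and 128 in shCTRL, of which 14 and 26 did. Of end joining and break signalling genes, 9 of 20 were higher and 11 lower, with a median of −0.09.

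Xrcc4, for the partner of DNA ligase IV in end joining, held 211 and 211 CPM in shHMGB1, against 161 and 141 CPM in shCTRL, without overlap (log2 difference 0.48 ± 0.28). Of its 216 and 179 ends in shHMGB1, 151 and 105 sat at 1 position, as did 72 and 62 of 129 and 133 in shCTRL. Prkdc, for the catalytic subunit of DNA-dependent protein kinase, held 118 and 135 CPM in shHMGB1, against 93.6 and 103 CPM in shCTRL, with no position above 5 ends (log2 difference 0.36 ± 0.29). Atm, for the kinase that signals double-strand breaks, was the member with an unadjusted p under 0.05, at 29 and 55 ends in shHMGB1, against 13 and 28 in shCTRL, which overlap in CPM. It was chosen for mention after its values were seen. Of p53 target genes, 5 of 11 were higher and 6 lower, with a median of −0.12. Sesn1, a stress-induced sestrin gene, held 31 and 22 ends in shHMGB1, against 19 and 35 in shCTRL, and Zmat3, a zinc finger gene, held 27 and 18 in shHMGB1, against 19 and 17 in shCTRL. Of immediate early genes, 5 of 12 were higher and 7 lower, with a median of −0.19. Dusp1, for a phosphatase of MAP kinases, held 248 and 131 ends in shHMGB1, of which 208 and 115 lay at pile-ups, against 118 and 110 in shCTRL, of which 92 and 94 did. Fosl2, for an AP-1 transcription factor, had no ends at pile-ups and held 43 and 34 ends in shHMGB1, against 44 and 60 in shCTRL, lower in CPM without overlap (log2 difference −0.53 ± 0.35).

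Strongly transcribed genes and matrix genes had many ends in both lines at 10 Gy. In the list of highly transcribed genes, 12 of 27 were higher in shHMGB1 and 15 lower, with a median of −0.04. Their exons held 14.0 and 11.6 CPM per kb in shHMGB1, against 12.6 and 13.8 in shCTRL, as a density per length, while exons of neuronal genes, which this tissue is not known to use, held 0.263 and 0.376 in shHMGB1, against 0.194 and 0.328 in shCTRL. Malat1, a nuclear noncoding RNA gene, held 3408 and 4135 CPM in shHMGB1, against 3441 and 4332 CPM in shCTRL. Ncl, for the nucleolar protein nucleolin, held 475 and 558 ends in shHMGB1, against 487 and 688 in shCTRL. Of snoRNA host genes, 1 of 11 was higher and 10 lower, yet the median was only −0.07, and Gas5 held 2967 and 2600 CPM in shHMGB1, against 2783 and 3039 CPM in shCTRL. Snhg1 held 2169 and 1432 ends in shHMGB1, against 1371 and 2026 in shCTRL. Of matricellular and matrix genes, 6 of 21 were higher and 15 lower, with a median of −0.18. Ccn5 and Adamtsl5 among them had an unadjusted p under 0.05. Fn1, for fibronectin, held 620 and 570 CPM in shHMGB1, against 585 and 848 CPM in shCTRL, and Thbs1, for thrombospondin 1, held 508 and 475 CPM, against 489 and 636 CPM.

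Long genes that are common fragile sites gave 10 higher and 8 lower of 18, with a median of 0.02, and neuronal genes 13 higher and 3 lower of 16, with a median of 0.15 and no member at an unadjusted p under 0.05. Macrod2 had the most ends of the fragile-site list, with 2493 and 2093 ends in shHMGB1, of which 1776 and 1501 lay at pile-ups, against 1700 and 1678 in shCTRL, of which 1120 and 1075 did. Ptprd, a receptor phosphatase gene with no pile-up, held 547 and 391 ends in shHMGB1, against 495 and 467 in shCTRL. Rbfox1, a neuronal splicing factor gene, held 471 and 433 CPM in shHMGB1, against 487 and 378 CPM in shCTRL. Nrxn3, for a synaptic neurexin, held 474 and 366 ends in shHMGB1, against 395 and 285 in shCTRL. Cell type lists were small at this depth. Of mesothelial genes 2 of 4 tested were higher (median 0.06), of fibroblast genes 2 of 8 (median −0.08) and of blood cell genes 4 of 5 (median 0.26). Cdh2, a cadherin gene of mesothelium, held 63 and 53 ends in shHMGB1, against 39 and 40 in shCTRL, while Gpm6a, a membrane glycoprotein gene, held 20 and 25 ends in shHMGB1, against 28 and 25 in shCTRL (log2 difference −0.33). Col1a1, a collagen gene, held 533 and 323 ends in shHMGB1, against 364 and 488 in shCTRL, and Ptprc, for the blood cell antigen CD45, held 34 and 28 in shHMGB1, against 26 and 22 in shCTRL. Adgre1, for the macrophage antigen F4/80, held 20 and 22 ends in shHMGB1, against 12 and 10 in shCTRL. These counts are of break ends and do not measure which cells were present.

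By region, intergenic sequence held a larger share of ends in shHMGB1, at 35.2% and 34.7%, against 33.4% and 33.3% in shCTRL. The means were 34.9 ± 0.359% and 33.3 ± 0.00431% (SD, n = 2 each) and differed by 1.59 percentage points. The exact permutation test gave p = 0.333, the smallest this design allows, and 1 after adjustment over 4 regions. With each position counted once the groups overlapped, at 40.1% and 39.9% in shHMGB1, against 40.6% and 37.4% in shCTRL. Sequence up to 1 kb from the start of a protein-coding gene (the TSS), which is 1.52% of the genome, held 13.6% and 15.3% of the ends in shHMGB1, against 18.4% and 13.3% in shCTRL. The highest share belonged to shCTRL replicate 1, the library with the largest share in dense regions. With each position counted once the TSS share was 3.44% and 3.45% in shHMGB1, against 3.58% and 3.45% in shCTRL.

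Exons, 3.69% of the genome, held 11.8% and 9.77% of the ends in shHMGB1, against 11.1% and 11.2% in shCTRL. Introns, 39.2% of the genome, held 39.4% and 40.3% in shHMGB1, against 37.1% and 42.1% in shCTRL. The intergenic share, 55.6% of the genome by length, was also higher in both shHMGB1 libraries at 0 Gy, by 1.01 points, and at 5 Gy, by 5.02 points, while at 3 Gy the libraries overlapped. Counted by distinct positions, the TSS share was lower in both shHMGB1 libraries at 0, 3 and 5 Gy, by 0.502, 1.02 and 0.667 points, where library sizes differed more, and it overlapped at 10 Gy. With all ends counted, the TSS share was instead higher in both shHMGB1 libraries at 3 Gy, by 3.34 points. It then overlapped at 0, 5 and 10 Gy. Whether these differences depend on dose was not tested.

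**Figure D4:**
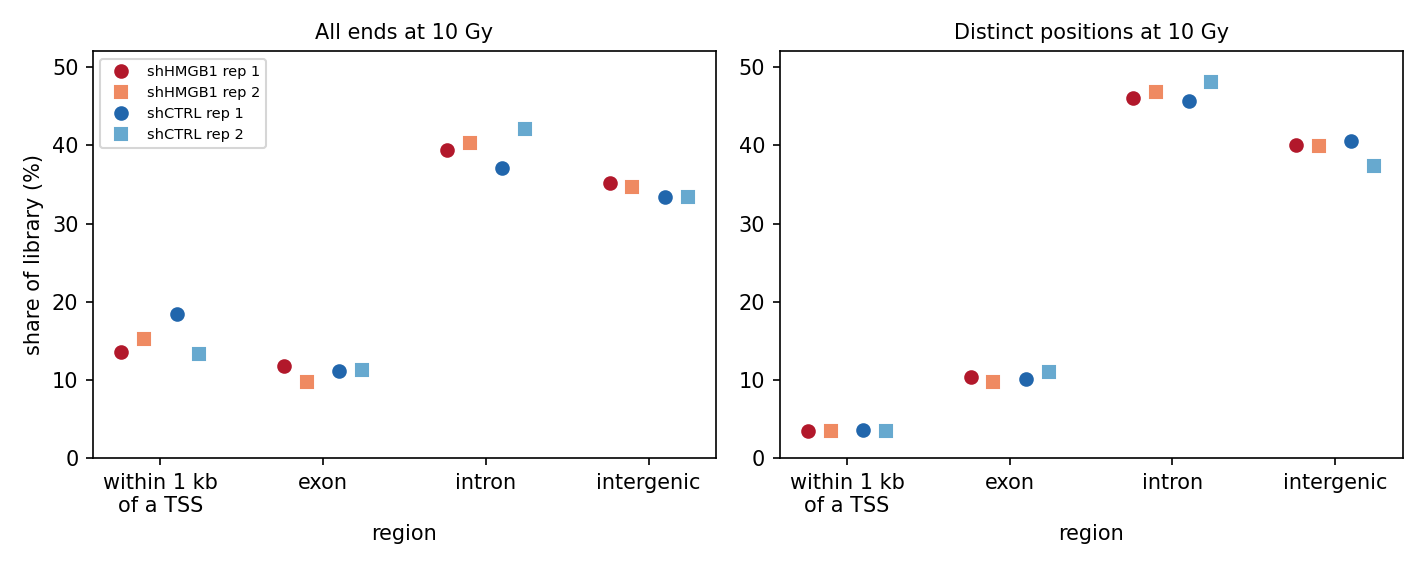
Share of each library (y axis, percent) in 4 classes of region at 10 Gy, for all ends (left) and for distinct positions (right), with one point per library. Among all ends the 2 shHMGB1 points lie above the shCTRL points in intergenic sequence, and among distinct positions the points of the lines overlap there.

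Of 5 classes of small RNA genes, scaRNA genes were the one without overlap between the lines when all ends were counted. snoRNA genes held 2.09% and 1.73% of the ends in shHMGB1, against 1.63% and 2.36% in shCTRL. The snoRNA gene Snord87 alone had 1220 and 1265 ends in shHMGB1, against 666 and 2161 in shCTRL. rRNA genes held 1.62% and 1.03% in shHMGB1, against 1.43% and 1.20% in shCTRL, and nearly all of it came from a single repeat on chromosome 17. scaRNA genes, which guide modification of spliceosomal RNAs, held 0.0733% and 0.0775% in shHMGB1, against 0.0785% and 0.0935% in shCTRL, without overlap (exact permutation p = 0.333, adjusted 1 over 5 classes). With each position counted once, 3 classes were lower in both shHMGB1 libraries (exact permutation p = 0.333 each, adjusted 0.556). snoRNA genes then held 0.568% and 0.543% in shHMGB1, against 0.585% and 0.625% in shCTRL. rRNA genes held 0.263% and 0.285% in shHMGB1, against 0.297% and 0.290% in shCTRL. scaRNA genes held 0.0393% and 0.0406% in shHMGB1, against 0.0489% and 0.0413% in shCTRL. Among all ends, miRNA genes held 0.0560% and 0.0499% in shHMGB1, against 0.0547% and 0.0634% in shCTRL.

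Around the TSS, the density of distinct positions rose just past the start in all 4 libraries. From 50 to 250 bases downstream it was 2.17 and 1.76 times the level in the outermost 500 bases of the profile in shHMGB1, against 2.11 and 1.79 times in shCTRL, so that replicates differed more than lines. From 150 bases upstream to 50 downstream, where promoters are commonly free of nucleosomes, it was 1.39 and 1.25 times in shHMGB1, against 1.21 and 1.15 times in shCTRL. The difference of 0.141 was without overlap (exact permutation p = 0.333, the smallest possible). With all ends counted, the groups overlapped there, at 0.998 and 0.949 in shHMGB1, against 0.978 and 0.888 in shCTRL. In the 4444 genes with the most ends per kb at the other doses, the upstream value was 1.54 and 1.35 in shHMGB1, against 1.49 and 1.13 in shCTRL, which overlap, as did the 4445 genes with the fewest, at 0.966 and 1.13 in shHMGB1, against 0.837 and 1.05 in shCTRL. In the first of these sets the downstream value was 3.15 and 2.16 in shHMGB1, against 3.13 and 2.24 in shCTRL. In the second set it was 1.05 and 1.42 in shHMGB1, against 1.15 and 1.23 in shCTRL.

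**Figure D5:**
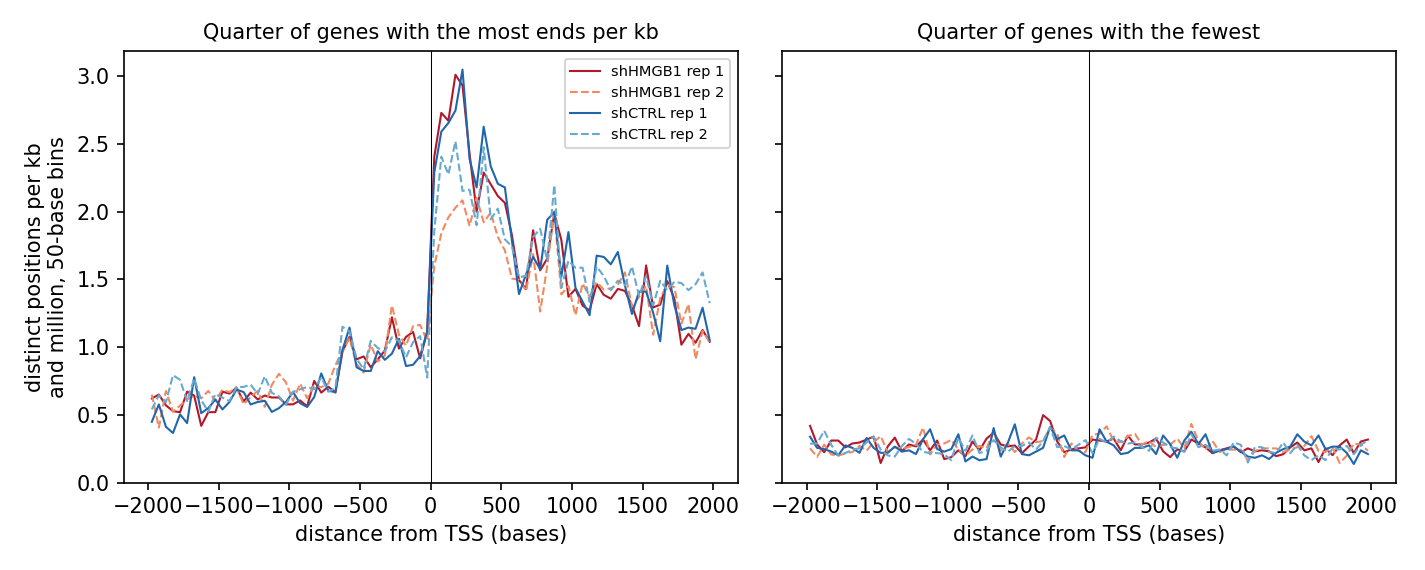
Distinct break positions per kb, scaled to the positions of each library (y axis) by distance from the TSS in bases (x axis, 50-base bins) at 10 Gy, for the 4444 protein-coding genes with the most ends per kb at other doses (left) and the 4445 with the fewest (right), one line per library. On the left all libraries rise past the start, with replicate 1 of each line above replicate 2 over the first 250 bases; on the right the profile is flat.

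Promoters and large windows gave no calls either. Of 398 promoters (1 kb on each side of the TSS) with enough ends, 0 passed in edgeR (percent called 0) and 13 had an unadjusted p under 0.05 (3.27%), 6 higher in shHMGB1 (1.51%) and 7 lower (1.76%), and DESeq2 gave 0 and 6. The promoter of Fmc1, a mitochondrial assembly factor gene, held 54 and 19 ends in shHMGB1, against 11 and 12 in shCTRL. The promoters of Surf4 and Stkld1, which start back to back on chromosome 2 and share ends, held 3 and 13 and 3 and 11 ends in shHMGB1, against 0 in each shCTRL library. The promoter of Usp36, for a ubiquitin protease of the nucleolus, held 9 and 2 ends in shHMGB1, against 17 and 27 in shCTRL. That of Hspa5, for the endoplasmic reticulum chaperone BiP, held 29 and 11 ends in shHMGB1, against 38 and 45 in shCTRL. The edgeR adjusted p of each of these was 0.997.

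Of 2578 windows of 1 Mb, 0 passed in edgeR (percent called 0) and 53 had an unadjusted p under 0.05 (2.06%), 31 higher in shHMGB1 (1.2%) and 22 lower (0.853%), and DESeq2 gave 0 and 23. The median standard error of a window was 0.17, so windows were measured more finely than genes. A window on chromosome 6 from 93000001 to 94000000, which holds Magi1, for a junction scaffold protein, had 306 and 302 ends in shHMGB1, against 176 and 234 in shCTRL (log2 difference 0.45 ± 0.16, edgeR adjusted p = 1.00). One on chromosome 14 from 86000001 to 87000000, which holds Diaph3, for a formin, had 232 and 165 ends in shHMGB1, against 134 and 120 in shCTRL (0.50 ± 0.18). One on chromosome 3 from 15000001 to 16000000, with the Sirpb1 family of near-identical copies, had 156 and 104 ends in shHMGB1, against 68 and 91 in shCTRL. On the lower side, a window on chromosome 7 from 113000001 to 114000000, with Arntl and Spon1, had 282 and 235 ends in shHMGB1, against 266 and 359 in shCTRL (−0.40 ± 0.15). One on chromosome 6 from 126000001 to 127000000, with Ano2 and potassium channel genes, had 169 and 142 ends in shHMGB1, against 178 and 199 in shCTRL. In CPM, 19.9% of windows were higher in both shHMGB1 libraries and 9.81% lower in both.

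By chromosome, Y held 0.123% and 0.107% of the ends in shHMGB1 (Wilson 95% intervals 0.116% to 0.130% and 0.100% to 0.114%), against 0.157% and 0.128% in shCTRL (0.148% to 0.165% and 0.121% to 0.136%). The log2 difference of −0.31 compares with differences of 0.20 and 0.29 between the replicates of a line, and without dense regions and pile-ups the lines overlapped. Chromosome 3 held 5.89% and 5.96% in shHMGB1, against 5.36% and 5.86% in shCTRL. Other chromosomes overlapped between the lines when all ends were counted. Without dense regions and pile-ups, chromosomes 3, 16, 17 and X were higher in both shHMGB1 libraries and 8, 10, 13 and 15 lower. The largest of these log2 differences was 0.04, on chromosome 3. The intervals cover counting error only.

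On a finer scale, break positions of both lines were crowded at short distances. Outside dense regions, pairs of distinct positions 1 base apart were 33.7 and 42.6 times as frequent as pairs 501 to 1000 bases apart in shHMGB1, against 36.9 and 42.6 times in shCTRL. At 11 to 50 bases the values were 4.91 and 5.00 in shHMGB1, against 5.20 and 5.38 in shCTRL, and at 51 to 100 bases they were 2.47 and 2.55 in shHMGB1, against 2.61 and 2.73 in shCTRL. At 101 to 150 bases, about the length of DNA on a nucleosome, they were 1.49 and 1.50 in shHMGB1, against 1.58 and 1.60 in shCTRL, and at 151 to 200 bases 1.25 and 1.28 in shHMGB1, against 1.30 and 1.32 in shCTRL. In each of these 4 bins, from 11 to 200 bases, both shHMGB1 libraries lay below both shCTRL libraries, and no test was made. The order was thus not limited to the length of a nucleosome. In the bins below 11 bases and in those above 200 bases the lines overlapped. All bins of a library were divided by its same value at 501 to 1000 bases, so the 4 are not separate observations. Thinned to 491875 distinct positions each, shHMGB1 replicates shared 2.56% of positions and shCTRL replicates 2.81%, and pairs across lines shared 2.56% to 2.89%.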

How the data were processed

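BLISS libraries of AB22 cells were analysed from deposited counts of break ends, 1 file per library, in which the authors' raw counts are of molecules per cluster with the position of each end, not normalised. Per the submitters' processing notes, the build was mm10 and the tools included bedtools, UMI-tools, SAMtools, Trimmomatic 0.32 and BWA 0.7.5-r404, with order and settings not given in the sources used here. The files keep no strand. Ends on the main chromosomes were placed at their own positions and counted over 21910 protein-coding and 10142 long noncoding genes of GENCODE M21, over 1 kb on each side of protein-coding TSS and over 1 Mb windows. A region share puts each end in 1 class, in the order TSS, exon, intron, intergenic. All 16 libraries were fitted as 8 group means with edgeR 4.0.16 (R 4.3.3; TMM, filterByExpr, quasi-likelihood test, Benjamini-Hochberg), and DESeq2 1.42.0 was an alternative. Pile-ups were scaled by library totals in place of TMM. The code was tested on simulated data. Library totals, region shares and TSS profiles were tested by two-sided exact permutation. The 4 libraries at 10 Gy held 826051 to 1010888 ends, and intervals cover counting error only. Members, lists and tests were chosen with earlier results of these data known. Genes named are the 6 with the smallest p in each direction (predicted genes left out), together with Hmgb1, the 2 members of each list with most ends, genes called at the other doses, and promoters (up to 8) and windows (5) in each direction by p; others are marked. Of these, 1 gene is not reported here. RNA-seq and ATAC-seq, which the series' design names, were not used here. Counting, permutation and drawing used scipy 1.17.1, pandas 2.3.3, matplotlib 3.10.9 and numpy 2.4.6 under Python 3.11.15.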

Additional observations from a re-analysis of the deposited data

How the results depend on the processing

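With 2 libraries a group an exact test cannot go below p = 0.333, and with a median standard error of 0.55 most genes could differ by more than 1.5 times without a call. Replicate numbers were not taken to pair the lines. Same-dose deviations correlated at −0.192 to 0.102 between lines, and the 1 of the 4 over 0.1 was that at 10 Gy. Within a line they correlated at 0.0792 to 0.201. The replicate block left 0 genes, as in the report. The block within each line gave 1 gene (Avil), and the block on the 4 libraries at 10 Gy 4 genes (Avil, Tsfm, Calhm5 and Tspan11). For pile-ups, all of whose settings were added after seeing the data, the 4 libraries alone gave 6 calls, all higher in shHMGB1. The replicate block gave 1, lower in shHMGB1. TMM over the pile-ups, which centres them near 0 by design, gave 0 calls and moved the median log2 difference from 0.55 to −0.04. Scaling by the ends outside pile-ups gave 0 calls and a median of 0.58. All other settings for genes, promoters and windows, including DESeq2, no filter, distinct positions, at most 3 ends per position, without dense regions, without pile-ups (added after seeing the data) and each library left out, gave 0 calls. The intergenic difference stayed positive, at 0.922 to 1.85 points. The intron difference of 0.225 points became −0.45 with distinct positions, −0.44 with at most 3 ends per position, −0.46 without dense regions and −0.49 for thinned distinct positions. The rRNA difference became −0.0193 and −0.0294 points and the snRNA difference −0.0017 and −0.0034 with distinct positions and at most 3 ends. The downstream TSS value became −0.0900 with all ends. Apol6 became −0.0657 with distinct positions and −0.81 with the block within each line, and Fkbp2 0.18 with distinct positions and 0.0550 with at most 3 ends. The causes were not tested. With single libraries left out, the ranges were −0.0449 to 0.25 (log2) for totals, −3.95 to 1.11 points for TSS, −1.42 to 0.626 for exon and −2.24 to 2.69 for intron shares, −0.453 to 0.281 for snoRNA, −0.289 to 0.306 for rRNA and −0.0181 to 0.0332 for snRNA shares, and −0.19 to 0.22 for the downstream TSS value. Apol6 ran between −0.84 and 2.88, Fkbp2 between −1.35 and 0.18, and Gm47283 between −0.99 and 0.0304.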

Other observations

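Repeated sequence held much of each library at 10 Gy. A stretch of chromosome 2 from 98663985 to 98668287, with the predicted genes Gm10800 and Gm10801, held 7.30% and 8.52% of the ends in shHMGB1, against 10.7% and 7.14% in shCTRL. A stretch of chromosome 17 from 39841995 to 39849347, which holds ribosomal RNA sequence, held 3.59% and 1.85% in shHMGB1, against 3.62% and 1.94% in shCTRL, with replicate 1 high in both lines. Over the 32 dense regions, 12 were higher in both shHMGB1 libraries, 2 were lower and 18 overlapped, where 42.1% of pile-ups and 19.9% of 1 Mb windows were higher. Of these 12, all but a stretch of chromosome 3 from 5859337 to 5861803 hold one of the pile-ups with the most ends at 10 Gy. They include the places in Slc36a1, Fam163b, Cdhr2 and Macrod2 already given. Those regions thus repeat the values at pile-ups and are not a separate observation. Mitochondrial DNA held 0.427% and 0.322% of the ends in shHMGB1, against 0.356% and 0.301% in shCTRL.

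Some pile-ups with many ends lay in snoRNA genes, and the lines overlapped at those given here. At position 9942470 of chromosome 1, in Snord87 within its host gene Snhg6, there were 1132 and 1415 CPM in shHMGB1, against 693 and 2412 in shCTRL. This pile-up makes up most of the Snord87 ends given above. At position 80078501 of chromosome 15, in Snord83b within the ribosomal protein gene Rpl3, there were 862 and 546 CPM in shHMGB1, against 667 and 838 in shCTRL.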
